A study of Mus musculus with 6 samples.

Results

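Knockdown of Snai1 under pressure overload was compared with pressure overload alone, across all genes of mouse heart RNA-seq libraries. The comparison used 4 of the 6 libraries in the series, 2 in each of the groups compared, and 14447 of the 19320 genes in the table had enough reads to be tested. The control libraries came from wild-type (WT) hearts after transverse aortic constriction (TAC), an operation that narrows the aorta and makes the left ventricle pump against a higher pressure. The other libraries came from hearts labelled Snai1 knockdown, also after TAC, and the remaining pair, WT hearts after sham surgery, is shown beside them for reference. All 6 carry the label 2 weeks. The series' design text names the agent as shSnai1, a short hairpin RNA. Its vector, its promoter, the cells it reached and any control hairpin are, like the age, sex, strain and number of the mice, not given in the sources. The labels do not say whether replicates are different animals. The p-values therefore measure only the spread among these libraries, part of which may be technical.

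Snai1 encodes Snail, a zinc finger transcription factor that binds E-boxes (the DNA letters CAGGTG, or CACCTG on the other strand) and represses the genes next to them. It is best known for switching off E-cadherin and other junction genes when epithelial cells turn mesenchymal, and endothelial cells can pass through a similar transition. In a heart under pressure load, cardiac muscle cells switch on fetal and stress genes such as the natriuretic peptides, resident fibroblasts become matrix-secreting myofibroblasts, and monocytes enter the tissue. Snail has been studied there mainly in endothelial cells and fibroblasts.

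The values below are read counts scaled to a common library size (CPM) in libraries resolved from the deposited columns. The 2 deposited columns of each group behave as 60:40 and 40:60 mixtures of 2 libraries, and resolving them gave whole reads for 99.9% of values within a tolerance of 0.05. The resolved libraries held 18094371 and 17221296 reads in TAC, 15254674 and 18247816 with knockdown, and 14835962 and 17411291 in sham. Within a pair, the replicate 1 value is given before that of replicate 2. Genes of the contractile apparatus summed to between 138716 and 153430.0 CPM in the 4 libraries compared, 31 of 32 sarcomere genes were tested, and each of 30 endothelial markers was tested, so the libraries carried RNA of heart muscle and of its vessels. In bulk tissue, fewer cells of a type and less RNA per cell cannot be told apart.

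Snai1 itself lies on chromosome 2 from 167538195 to 167542814 on the plus strand of GRCm38. It had 81 and 73 reads in the TAC libraries and 52 and 50 with knockdown. In CPM it stood at 4.48 and 4.24 in TAC, at 3.41 and 2.74 with knockdown and at 5.12 and 3.45 in sham. Both knockdown libraries lay below both TAC libraries, in the direction of the label, and the groups did not overlap. The same held for 12.4% of all tested genes. The fold of knockdown over TAC was 0.704, with a 95% interval from 0.430 to 1.153 (limma, log2 difference -0.51 ± 0.33, SE; Benjamini-Hochberg adjusted p = 0.999). The test therefore did not call the targeted gene lower, and the interval takes in both a large loss of the transcript and none. Without knockdown replicate 2 the log2 difference was -0.35, and without knockdown replicate 1 it was -0.66.

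The 250 bases before the annotated start of Snai1 (chr2:167537945-167538194, plus strand, GRCm38.p6, RefSeq) are shown because in human cells Snail is known to bind an E-box in its own promoter. The capitals mark the match to such an E-box, which starts 126 bases before the gene start.
Snai1: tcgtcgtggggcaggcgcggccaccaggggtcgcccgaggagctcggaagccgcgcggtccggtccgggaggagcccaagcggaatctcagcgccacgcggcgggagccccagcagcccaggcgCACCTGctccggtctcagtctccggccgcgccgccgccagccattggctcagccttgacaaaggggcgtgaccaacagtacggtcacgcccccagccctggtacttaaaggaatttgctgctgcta

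No gene passed the test in either direction between knockdown and TAC. The call rate was 0% of 14447 genes with limma, and limma-voom and robust limma also called 0. An unadjusted p below 0.05 was reached by 299 genes, 2.07% of those tested, of which 183 were higher with knockdown (1.27%) and 116 lower (0.803%). In 28.4% of genes the groups did not overlap, 16% with knockdown higher and 12.4% with it lower. The number at an unadjusted p below 0.05 was 487 without TAC replicate 2 and 541 without knockdown replicate 2. Over all genes the median log2 difference was 0.02 with quartiles at -0.10 and 0.15. Median ratio scaling brought the median to -0.00, and it lay between -0.02 and 0.06 when any of the 4 libraries was left out.

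**Figure D1:**
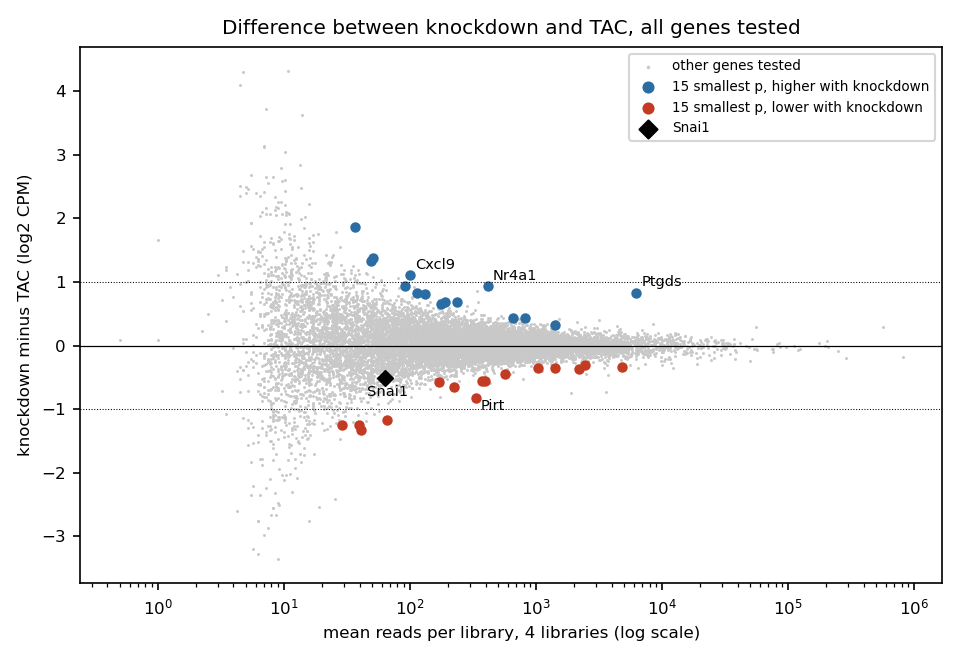
Log2 difference in CPM between knockdown and TAC (vertical axis) against the mean reads per library over the 4 libraries (horizontal axis, log scale) for 14447 genes; dotted lines mark 2-fold. The coloured points are the 15 genes with the smallest p in each direction among genes with at least 20 mean reads, none of which passed the test, and the spread narrows to the right, where no gene with at least 500 reads reaches 2-fold.

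The absence of calls can be read against the width of the intervals. The whole 95% interval of the fold lay within 2-fold in both directions for 10933 genes (75.7%) and within 1.5-fold for 7787 (53.9%). Among the 5344 genes averaging at least 500 reads these shares were 99.9% and 96.4%, and 3 of these genes differed by more than 1.5-fold in the estimate, namely Ptgds, Nppa and Pdk4. Among the 1354 genes under 20 reads, no interval lay within 2-fold, so for none of them can a change of that size be excluded in both directions. Snai1 belongs to the range of 20 to under 100 reads, where 29.0% of intervals were that narrow. In simulated libraries of the same totals, with changes placed between knockdown and TAC in genes of at least 20 reads, 88% of 100 genes with a 2-fold change and 100% of 100 with a 4-fold change were called. Both sets were changed at once, which eases the adjusted threshold, so these shares do not hold for 1 or a few changed genes. Beyond counting noise, every simulated gene was given the same spread between libraries, taken from genes averaging at least 500 reads. In the data the spread differs between genes, so the shares may be too high, above all for genes with a wide spread. The median standard error was 0.17 in the simulation and 0.19 in the data.

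The knockdown libraries stood about as far from the TAC libraries as libraries of the same group stood from each other. Over the 5344 genes with at least 500 reads, the SD of the log2 difference was 0.21 between the TAC libraries and 0.19 between the knockdown libraries. The 4 pairs that cross the groups had SDs of 0.21, 0.19, 0.17 and 0.16. The closest pair of all, with 0.16, was TAC replicate 1 and knockdown replicate 2.

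**Figure D2:**
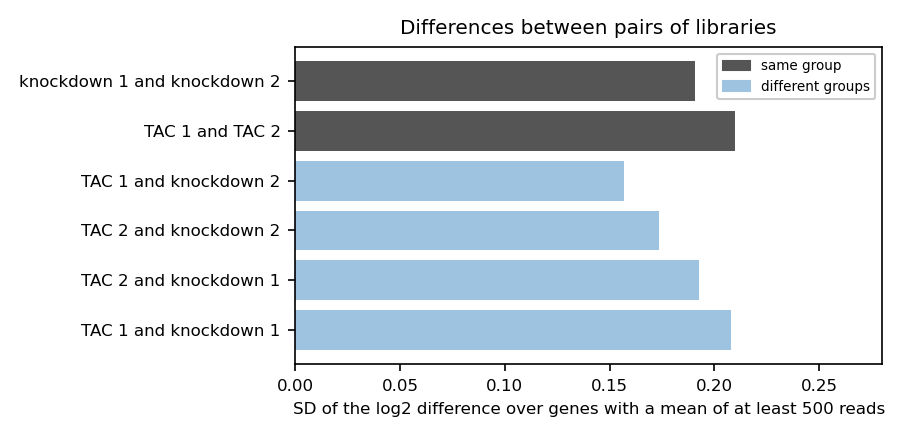
SD of the log2 difference in CPM for each pair of the 4 libraries, over genes averaging 500 reads or more; dark bars join libraries of the same group and light bars join a TAC and a knockdown library. The light bars lie between 0.16 and 0.21, and the dark bars stand at 0.19 and 0.21.

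Of all genes, Ptgds came closest to the threshold; it encodes the lipocalin-type prostaglandin D synthase, an enzyme that makes prostaglandin D2 (chromosome 2, 25466709 to 25470046, minus strand). It stood at 303 and 229 CPM in TAC and at 497 and 438 with knockdown, beside 349 and 270.3 in sham. Both knockdown libraries were above all 4 others. The difference was 1.77-fold with a 95% interval from 1.43 to 2.19, a log2 difference of 0.82 ± 0.15 (limma, adjusted p = 0.797), and it was not called. Of the 21 tested genes of prostaglandin synthesis, transport and reception, 14 were higher with knockdown and 7 lower in the estimate, with a median of 0.17 against 0.02 over all genes. An unadjusted p below 0.05 was reached by 3, all higher and with Ptgds among them (1.27% of all genes in that direction). The list was chosen with earlier results of these data known, so this count is no independent evidence for the pathway. Without knockdown replicate 1 that median was -0.04. Slco2a1, which encodes the transporter that carries prostaglandins into cells, stood at 8.12 and 5.11 CPM in TAC against 12.3 and 8.77 with knockdown, a log2 difference of 0.68 ± 0.29. Ptger3, a prostaglandin E2 receptor gene, had 1 and 4 reads in TAC against 18 and 15 with knockdown. Its knockdown libraries lay above the others, at depths that leave its fold uncertain.

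Besides Ptgds, the smallest p-values among higher genes belonged to genes of several kinds. Nr4a1 (chromosome 15, 101254269 to 101274795, plus strand) encodes an orphan nuclear receptor induced quickly by many stimuli. It stood at 18.2 and 15.2 CPM in TAC, 38.7 and 26.2 with knockdown and 66.9 and 93.9 in sham, a log2 difference between knockdown and TAC of 0.93 ± 0.20. Camk2b (chromosome 11, 5969644 to 6066362, minus strand), a subunit of the calcium and calmodulin-dependent kinase, stood at 9.01 and 8.13 in TAC, 13.4 and 14.3 with knockdown and 17.4 and 19.9 in sham, a difference of 0.69 ± 0.19. In both genes the knockdown values lay between those of TAC and sham without overlap. Gpm6a, a membrane glycoprotein gene of neurons that mesothelium also expresses, stood at 1.33 and 1.97 CPM in TAC against 3.47 and 5.15 with knockdown, a log2 difference of 1.37 ± 0.39. Dbi, which encodes the acyl-CoA-binding protein, differed less but evenly, with 72.9 and 73.3 in TAC, 91.1 and 92.9 with knockdown and 80.0 and 76.6 in sham (0.33 ± 0.11 on the log2 scale).

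The other higher genes included Clec5a, a myeloid lectin receptor gene, with 1.44 and 1.86 CPM in TAC against 4.59 and 3.78 with knockdown, and Rgs17, a regulator of G protein signalling, with 1.99 and 0.348 against 3.28 and 3.01. Anapc16, a subunit of the anaphase-promoting complex, stood at 42.1 and 40.2 in TAC against 61.2 and 50.4 with knockdown, and Ogfrl1 at 34.0 and 31.6 against 43.5 and 45.2. For both genes the knockdown libraries lay above the TAC libraries. Pfdn4, Gm826 and Taf1d completed the 15, with log2 differences of 0.82 ± 0.25, 0.94 ± 0.30 and 0.66 ± 0.23. The exons of Pfdn4 and Taf1d share bases with other genes, those of Taf1d with several small nucleolar RNAs, so their counts are uncertain. All 15 had groups that did not overlap, which 16% of all tested genes had in that direction, and all except Ptgds had an adjusted p of 0.999 (limma).

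Among lower genes the smallest p belonged to Pirt, which encodes a membrane protein that regulates ion channels in sensory neurons (chromosome 11, 66911981 to 66929876, plus strand). It stood at 21.1 and 28.7 CPM in TAC, 15.5 and 12.5 with knockdown and 14.2 and 12.6 in sham, a log2 difference between knockdown and TAC of -0.82 ± 0.20. Ephb3, an ephrin receptor tyrosine kinase gene (chromosome 16, 21204755 to 21223305, plus strand), stood at 25.1 and 26.9 in TAC, 18.03 and 17.4 with knockdown and 20.7 and 20.3 in sham, a difference of -0.55 ± 0.15. Chd6, a chromatin remodelling gene, stood at 139 and 150.2 in TAC, 106 and 117 with knockdown and 103 and 91.4 in sham (-0.37 ± 0.11). In all 3 genes the TAC libraries were the highest of the 6, and the knockdown libraries lay near or below the sham level. Trnp1, a nuclear protein gene first described in neural progenitors, had the same order, with 4.48 and 6.10 CPM in TAC, 2.43 and 2.19 with knockdown and 2.83 and 1.84 in sham (-1.17 ± 0.37). Prkar2b, a regulatory subunit of protein kinase A, stood at 2.27 and 2.497 in TAC against 0.983 and 0.986 with knockdown (-1.25 ± 0.42). Its sham libraries, at 3.57 and 3.33, lay above the TAC libraries. Esrrb, an orphan nuclear receptor related to the oestrogen receptors, stood at 70.0 and 64.9 in TAC, 53.0 and 53.2 with knockdown and 42.6 and 44.5 in sham (-0.34 ± 0.12). Genes chosen for a difference from TAC, in either direction, favour extreme TAC values, so their order against sham is partly set by the choice.

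Mtus2, which encodes a microtubule-binding protein, stood at 344 and 284 CPM in TAC against 249.0 and 246 with knockdown, and Casz1, a zinc finger factor of heart development, at 91.6 and 93.7 against 67.9 and 77.3. Aph1b, a subunit of gamma-secretase, the protease that cleaves Notch receptors, stood at 11.7 and 12.2 in TAC against 8.39 and 7.67 with knockdown, and Pgap3, an enzyme of GPI anchor remodelling, at 14.6 and 17.0 against 11.3 and 8.93. Each of these 4 genes was lower in both knockdown libraries than in either TAC library, by a log2 difference between -0.65 and -0.34. Sham stood at 229.5 and 215.7 for Mtus2, 76.8 and 61.3 for Casz1, 11.6 and 10.8 for Aph1b and 13.7 and 17.6 for Pgap3. For Aph1b and Pgap3 sham was thus near the TAC level. The remaining lower genes were Cpsf2, Gm11732, Tmem267, Mical3 and Map3k13, at -0.45 ± 0.14, -1.33 ± 0.43, -0.56 ± 0.20, -0.30 ± 0.11 and -1.25 ± 0.45. Exons of Cpsf2, Casz1, Tmem267, Mical3 and Map3k13 share bases with other genes, so their counts are uncertain too. All 15 had groups that did not overlap, as did 12.4% of tested genes in that direction, and an adjusted p of 0.999 (limma).

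**Figure D3:**
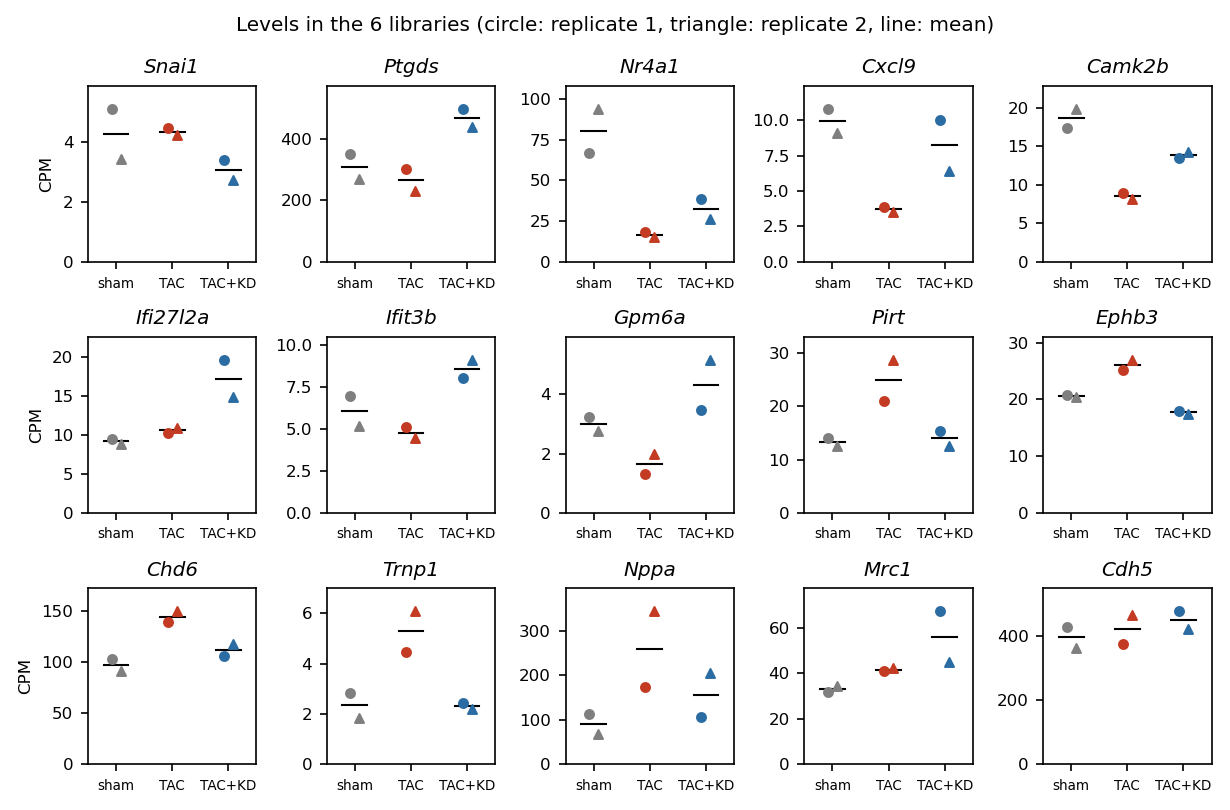
Levels in CPM (vertical axis, each from 0) of 15 genes in the sham, TAC and TAC with knockdown (TAC+KD) libraries; circles are replicate 1, triangles replicate 2 and lines the mean of both. Ptgds is higher in both knockdown libraries than in any other, Nr4a1 and Camk2b lie between TAC and sham, and Nppa, Mrc1 and Cdh5 differ as much between replicates of a group as between groups in at least 1 group.

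The transcription factors that work beside Snail in mesenchymal transition were examined next. Of 12 tested members of the Snail, Twist and Zeb families and related factors, 7 were higher and 5 lower, with a median log2 difference of 0.04, and 0 had an unadjusted p below 0.05. Snai3, the third Snail gene, stood at 5.86 and 3.83 CPM in TAC against 3.34 and 3.34 with knockdown, a difference of -0.50 ± 0.34 with an interval of the fold from 0.428 to 1.17. Sox9, a factor of cartilage development, stood at 6.63 and 9.35 in TAC against 4.72 and 5.81 with knockdown (-0.59 ± 0.28). Zeb2, a repressor that binds the same E-boxes as Snail, stood at 41.8 and 53.0 in TAC against 62.1 and 53.0 with knockdown (0.29 ± 0.17). Its relative Zeb1 stood at 81.5 and 90.5 against 96.0 and 80.6, with overlapping groups and an interval of the fold from 0.856 to 1.23.

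Junction and epithelial genes known as targets of Snail repression, mostly from epithelial cells, showed no shared direction. Of 26 in the table, 17 could be tested; 8 were higher with knockdown and 9 lower, with a median of -0.00, and 0 had an unadjusted p below 0.05. For 12 of the 17 the whole interval lay within 2-fold. The other 9, among them the E-cadherin gene Cdh1, had too few reads to test. Cdh5, which encodes the cadherin of endothelial junctions, stood at 376 and 466 CPM in TAC against 479 and 424 with knockdown, an interval of the fold from 0.891 to 1.30, and its log2 difference of 0.10 turned to -0.050 without TAC replicate 1. Dsp, the desmosomal plaque protein desmoplakin, stood at 2079 and 1684 against 1696 and 2004 (fold interval 0.809 to 1.201), and Jup, plakoglobin, at 382 and 379 against 407 and 413 (fold interval 0.931 to 1.25). In none of these 3 does the interval include a 1.5-fold difference in either direction. Groups did not overlap in 4 of the 17 with knockdown lower (12.4% of all genes) and in 1 with it higher (16%). The polarity genes Pard3 and Llgl2 were among the 4 that were lower in both knockdown libraries than in either TAC library. Pard3 stood at 55.5 and 58.7 in TAC against 47.9 and 49.3 with knockdown (-0.23 ± 0.12), and Llgl2 at 21.4 and 24.1 against 18.4 and 17.5 (-0.34 ± 0.18). Vdr, the vitamin D receptor gene, had 22 and 18 reads in TAC against 4 and 16 with knockdown, too few for a narrow interval.

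Promoters were searched on both strands for CAGGTG or CACCTG, the E-box that Snail binds, in windows from 250 bases before to 50 after each annotated start (RefSeq, GRCm38.p6). A gene can have several such starts, some of them inside the gene, and was counted as holding the motif if any of its windows did. The motif occurred in 6640 of 32851 promoters, or 20.2%, and in 15 of the 19 listed junction genes with a promoter entry (78.9%), against 22.6% of all 27025 genes. The list was drawn up from known Snail targets, so a higher share of the motif is partly built into its choice. Of the 11 matched junction genes that were tested, 8 held it. The following sites show the motif in capitals with its neighbouring bases in promoters of listed genes that had no exon at that place.
Krt18, chr15:102027982-102028027, plus strand: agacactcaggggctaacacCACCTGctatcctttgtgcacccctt
Muc1, chr3:89228966-89229011, plus strand: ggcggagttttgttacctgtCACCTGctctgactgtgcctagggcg
F11r, chr1:171437419-171437464, plus strand: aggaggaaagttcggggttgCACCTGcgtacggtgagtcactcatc
Pard3, chr8:127299372-127299417, plus strand: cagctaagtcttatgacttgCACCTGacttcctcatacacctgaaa
Pard3, chr8:127299389-127299434, plus strand: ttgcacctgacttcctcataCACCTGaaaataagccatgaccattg
Pard3, chr8:127299426-127299471, plus strand: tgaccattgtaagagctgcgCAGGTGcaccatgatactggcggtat
Hpgd, chr8:56294433-56294478, plus strand: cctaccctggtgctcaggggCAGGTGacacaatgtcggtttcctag

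Pard3, whose 3 matches stand close together so that their windows share bases, was lower with knockdown in both libraries, as given above. Its matches belong to a single annotated start, and whether that is the main start of the gene was not examined. Muc1 held another match. F11r, the junctional adhesion molecule A gene, stood at 50.9 and 54.6 CPM in TAC against 54.8 and 47.3 with knockdown, a fold interval from 0.801 to 1.17. Hpgd, which encodes the enzyme that inactivates prostaglandins, stood at 7.85 and 7.90 against 14.1 and 6.96, with only knockdown replicate 1 above the TAC libraries. The epithelial genes Krt18 and Muc1 had between 4 and 22 reads in each of the 4 libraries. Over all tested genes that matched a promoter entry, the 2246 with the motif had a median log2 difference of 0.02 with 53.2% higher with knockdown, and the 8634 without it a median of 0.02 with 54.4% higher. An unadjusted p below 0.05 was reached by 2.63% of the former and 2.04% of the latter. A motif in this window is a match of letters and not a site of binding.

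Differences in endothelial identity genes were small. All 30 were tested, 24 were higher with knockdown and 6 lower in the estimate, with a median of 0.10, and 0 had an unadjusted p below 0.05. For all 30 the 95% interval of the fold lay within 2-fold and for 26 within 1.5-fold. The median turned to -0.10 without TAC replicate 1, was 0.00 without knockdown replicate 1 and 0.26 without TAC replicate 2. Their summed level was 4057 and 4931 CPM in TAC and 5040.4 and 4391 with knockdown, so the groups overlapped. Vwf, the von Willebrand factor gene, stood at 117 and 144 in TAC against 169 and 134 with knockdown (0.21 ± 0.14). Cav1, the coat protein of caveolae, stood at 361 and 503 against 468 and 446 (0.10 ± 0.14).

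Mesenchymal genes that define the end state of endothelial-to-mesenchymal transition split evenly, with 11 of 23 higher, 12 lower and a median of -0.02. Sparc, a secreted matrix-binding glycoprotein gene, stood at 474 and 731 CPM in TAC against 589 and 559 with knockdown (-0.04 ± 0.15), and Itgb1, the integrin beta 1 chain, at 502 and 519.6 against 514 and 523 (0.02 ± 0.10). Notch3, a receptor of mural cells, stood at 47.1 and 56.2 against 61.6 and 57.7 (0.21 ± 0.13). The gelatinase gene Mmp9 was the only member at an unadjusted p below 0.05 (1.27% of all genes in that direction). It had 2 and 6 reads in TAC against 23 and 11 with knockdown.

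Medians of fibroblast activation and matrix genes depended on TAC replicate 2, whose summed level of structural matrix genes was 5785 CPM against 4118 in TAC replicate 1. Of 25 fibroblast identity genes, 14 were higher and 11 lower, with a median of 0.02, and all 25 intervals lay within 2-fold. Of 21 genes of activated fibroblasts, 6 were higher and 15 lower, with a median of -0.13 and 2 at an unadjusted p below 0.05, both lower (0.803% of all genes in that direction). Lox, the enzyme that cross-links collagen, stood at 7.90 and 12.9 CPM in TAC, 6.29 and 6.30 with knockdown and 7.14 and 4.65 in sham, a log2 difference of -0.68 ± 0.29. Thbs4, thrombospondin 4, stood at 34.8 and 47.5 in TAC against 24.6 and 36.6 with knockdown (-0.44 ± 0.19), with overlapping groups. Postn, the myofibroblast marker periostin, stood at 92.0 and 176 against 114 and 127 (-0.08 ± 0.21), and Acta2, smooth muscle actin, at 228 and 374 against 298 and 248.7 (-0.10 ± 0.18). For both genes TAC replicate 2 was the highest library and TAC replicate 1 the lowest of the 4. Of 40 structural matrix genes, 16 were higher and 24 lower, with a median of -0.05. Without TAC replicate 2 the medians were 0.22 for activated fibroblast and 0.24 for structural matrix genes, and without TAC replicate 1 they were -0.47 and -0.34. Ogn, which encodes the small proteoglycan osteoglycin, ran the other way, at 158 and 167 CPM in TAC against 217 and 180.1 with knockdown (0.28 ± 0.11).

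Most cardiac stress and fetal genes were lower with knockdown in the estimate, by an amount that depended on single libraries. Of 22 tested, 4 were higher with knockdown and 18 lower, with a median of -0.13, 0 non-overlapping members in either direction (28.4% of all genes) and 1 at an unadjusted p below 0.05 (2.07% of all genes). Nppa, the atrial natriuretic peptide gene, stood at 173 and 346 CPM in TAC, 106 and 205 with knockdown and 113 and 68.2 in sham, a log2 difference of -0.73 ± 0.31 (fold interval 0.380 to 0.952, limma adjusted p = 0.999). Knockdown replicate 2 was above TAC replicate 1, so the groups overlapped. The log2 difference of Nppa was -0.24 without TAC replicate 2, -0.26 without knockdown replicate 1, -1.23 without TAC replicate 1 and -1.21 without knockdown replicate 2. Nppb, the other ventricular natriuretic peptide gene, named after its values were seen, had the opposite sign, at 50.8 and 184 in TAC against 97.0 and 163 with knockdown (0.38 ± 0.39). Fhl1, a stretch-sensing sarcomere protein gene, stood at 172 and 347 against 177 and 179, a log2 difference of -0.46 ± 0.21 that turned to 0.048 without TAC replicate 2. Actc1, cardiac actin, stood at 15917 and 19864 against 14446 and 16676 (-0.20 ± 0.18). The median of the list was 0.14 without TAC replicate 2, -0.46 without TAC replicate 1, 0.01 without knockdown replicate 1 and -0.31 without knockdown replicate 2.

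Atrial genes, included as markers of how much atrium a sample held, were lower in 14 of 18 cases, with a median of -0.12 that stayed between -0.21 and -0.09 when any of the 4 libraries was left out. Myl4, the atrial myosin light chain gene, stood at 62.2 and 44.4 CPM in TAC, 31.7 and 42.6 with knockdown and 52.2 and 32.9 in sham (-0.52 ± 0.21), and Myl7 at 49.7 and 35.9 in TAC, 25.4 and 39.2 with knockdown and 35.7 and 24.1 in sham (-0.42 ± 0.22). The list summed to 2811 and 3023 CPM in TAC and 2444 and 2881 with knockdown, and Nppa belongs to it as well. Bmp10, another gene of the atria, had 0 and 105 reads in TAC, 4 and 0 with knockdown and 0 and 0 in sham. It had reads in too few libraries to be tested. Between the TAC libraries Myl4 and Myl7 ran the other way, lower in replicate 2 than in replicate 1. The part of atrial tissue in the Nppa difference was not tested.

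Respiratory chain genes, which encode subunits of the mitochondrial complexes that make ATP, showed a small difference with the same sign in most members. Of 45 tested, 40 were higher with knockdown and 5 lower in the estimate, 14 had groups that did not overlap with knockdown higher (16% of all genes did) and 0 with it lower, and 0 had an unadjusted p below 0.05. The median was 0.08 against 0.02 over all genes, and between 0.03 and 0.14 when any of the 4 libraries was left out. With TAC replicate 2 left out, the list stood at a median of 0.03, below the 0.05 of all genes. All 45 intervals lay within 1.5-fold. Their summed level was 38421 and 34560 CPM in TAC and 37948 and 37238.5 with knockdown, so both knockdown libraries lay between the TAC libraries. Cox7a1, the heart and muscle subunit of cytochrome c oxidase, stood at 382 and 363 CPM in TAC against 490.3 and 397 with knockdown (0.24 ± 0.12). Cox8b, another muscle subunit of the same enzyme, stood at 254 and 239 against 320.4 and 271 (0.26 ± 0.14). In both genes knockdown replicate 1 was the highest of the 4 libraries. Pdk4, the kinase that shuts pyruvate out of mitochondria and the gene with the largest fold estimate among the abundant lower genes, stood at 114 and 164 in TAC, 75.1 and 88.5 with knockdown and 70.7 and 327 in sham (-0.75 ± 0.44). The sham libraries differed from each other more than the groups did.

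Interferon-stimulated genes leaned higher with knockdown. Of 59 tested, 47 were higher and 12 lower, with a median of 0.21 against 0.02 over all genes. An unadjusted p below 0.05 was reached by 7, all higher, against 1.27% of all genes in that direction, and 21 had groups that did not overlap with knockdown higher, against 16% of all genes, and 0 with it lower. Cxcl9 (chromosome 5, 92321347 to 92328079, minus strand), a chemokine that draws T cells, stood at 3.87 and 3.54 CPM in TAC, 10.03 and 6.41 with knockdown and 10.8 and 9.07 in sham, a log2 difference of 1.11 ± 0.27. Ifi27l2a, a gene induced by type I interferon, stood at 10.3 and 10.9 in TAC, 19.7 and 14.9 with knockdown and 9.50 and 8.90 in sham (0.68 ± 0.20). Ifit3b stood at 5.08 and 4.47 in TAC, 7.998 and 9.10 with knockdown and 6.94 and 5.17 in sham (0.84 ± 0.26), and its near-identical neighbour Ifit3 at 9.12 and 12.4 in TAC, 15.1 and 15.2 with knockdown and 12.4 and 8.21 in sham (0.51 ± 0.23), so that reads may be split between them. All 4 genes were higher in both knockdown libraries than in either TAC library, and with the exception of Cxcl9, whose knockdown and sham values overlapped, higher than in either sham library. Gbp3, a guanylate-binding protein gene, stood at 11.5 and 13.5 in TAC against 18.03 and 15.2 with knockdown (0.41 ± 0.19). The median of the list was 0.04 without knockdown replicate 1 and 0.37 without knockdown replicate 2.

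Markers of monocytes and macrophages stood highest in the same library as the interferon-stimulated genes. Of 34 tested, 27 were higher with knockdown and 7 lower, with a median of 0.20, 3 at an unadjusted p below 0.05, all higher (1.27% of all genes in that direction), 8 non-overlapping with knockdown higher (16% of all genes) and 1 with it lower (12.4%). Their summed level was 732 and 923 CPM in TAC and 1177 and 802 with knockdown, with replicate 1 of the knockdown group above every other library and replicate 2 between the TAC libraries; 0 of the markers were at 0 in all 4. Mrc1, the mannose receptor of resident macrophages, stood at 40.8 and 42.6 in TAC against 67.6 and 44.8 with knockdown (0.40 ± 0.17), and Csf1r, the receptor for the macrophage growth factor, at 49.1 and 50.8 against 64.3 and 55.2 (0.26 ± 0.13). Mertk, a receptor for the uptake of dying cells, stood at 11.2 and 15.3 against 25.04 and 14.6 (0.55 ± 0.24), with overlapping groups. The median of the list was -0.08 without knockdown replicate 1 and 0.44 without knockdown replicate 2. Genes of MHC class I and the immunoproteasome, which present peptides and are themselves induced by interferon, were higher in 18 of 21 cases with a median of 0.12, which turned to -0.03 without knockdown replicate 1. B2m, the shared light chain, stood at 304 and 413 in TAC against 482 and 331 with knockdown (0.17 ± 0.19). The part of macrophage content in the interferon-stimulated difference was not tested.

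**Figure D4:**
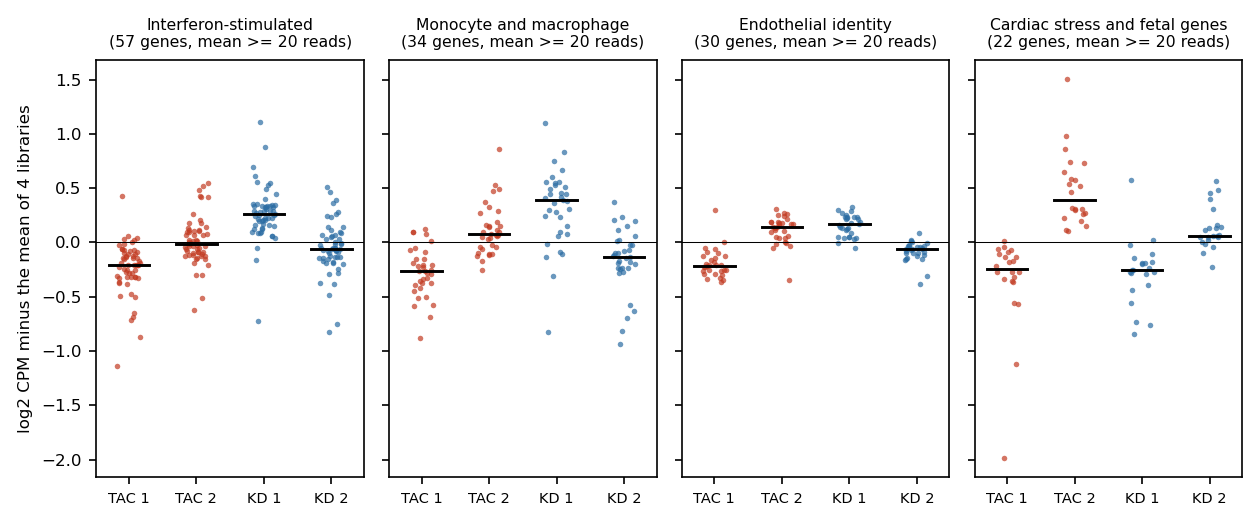
Log2 CPM of each member minus its mean over the 4 libraries (vertical axis) in TAC replicates 1 and 2 and knockdown (KD) replicates 1 and 2, for members with at least 20 mean reads; each point is a gene and each line the median. Interferon-stimulated and macrophage genes are highest in KD 1 while KD 2 lies between the TAC libraries, and cardiac stress genes are highest in TAC 2.

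Markers of other leukocytes were sparse. Of 15 neutrophil markers with a row, 7 could be tested, 6 of them higher, with a median of 0.73 that turned to -0.24 without knockdown replicate 1. Their summed level was 11.99 and 15.3 CPM in TAC and 23.4 and 20.1 with knockdown. S100a9, a calcium-binding protein gene abundant in neutrophils, stood at 1.33 and 1.39 in TAC against 4.46 and 1.151 with knockdown. Of 34 T and NK lymphocyte markers 12 could be tested, with a median of 0.31 that turned to -0.06 without knockdown replicate 1, and the genes of the CD3 chains were too low to test. Groups did not overlap in 5 with knockdown higher (16% of all genes) and in 2 with it lower (12.4%). An unadjusted p below 0.05 was reached by 1 in each direction (1.27% of all genes higher and 0.803% lower). Their summed level was 27.6 and 33.0 CPM in TAC and 39.1 and 27.3 with knockdown, so the groups overlapped. The member at that p on the higher side was Lck, the kinase at the T cell receptor, for which 2 and 0 reads were counted in TAC, 14 and 13 with knockdown and 13 and 13 in sham. The one on the lower side was Tcf7, a transcription factor of T cells, with 26 and 19 reads in TAC, 9 and 4 with knockdown and 43 and 17 in sham.

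**Figure D5:**
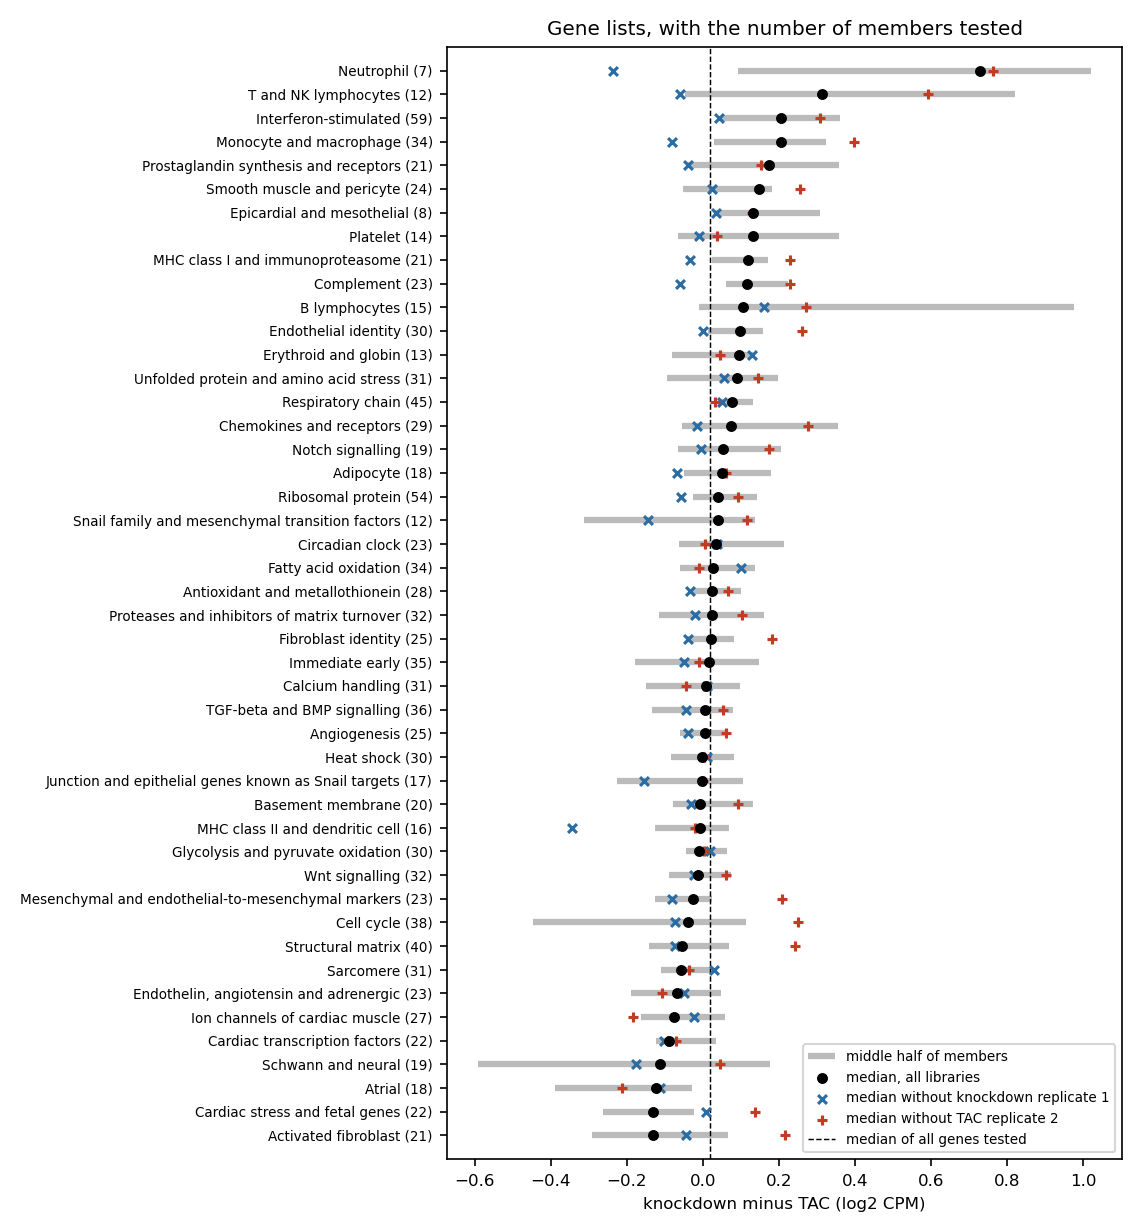
Median log2 difference between knockdown and TAC (horizontal axis) of 46 gene lists, with the number of members tested in brackets; grey bars span the quartiles of the members, crosses show the median without knockdown replicate 1 and plus signs that without TAC replicate 2. The dashed line is the median of all genes (0.02); the crosses lie left of the black points in the neutrophil, T and NK lymphocyte, interferon-stimulated and macrophage lists, and the plus signs right of them in the structural matrix, cardiac stress and activated fibroblast lists.

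The genes that had been called between TAC and sham in the same fit, 12 higher in TAC (0.0831% of genes) and 11 lower (0.0761%), were read in the knockdown libraries. Both comparisons use the same TAC libraries, so the levels are given side by side without a test of likeness. Between knockdown and TAC 0 of these 23 genes passed, 5 had an unadjusted p below 0.05 (2.07% of all genes) and 10 had groups that did not overlap (28.4% of all genes). These 23 genes were chosen for TAC values far from sham, which by itself favours knockdown values nearer to sham. The shares over all genes are therefore no yardstick for these counts. Mpeg1, the perforin-2 gene of macrophages, stood at 46.6 and 54.9 CPM in TAC, 82.1 and 45.7 with knockdown and 14.8 and 13.2 in sham. Fbn1, the microfibril protein fibrillin 1, stood at 121 and 157 in TAC, 124 and 126 with knockdown and 67.3 and 70.3 in sham. Ednra, the endothelin A receptor gene, stood at 76.3 and 77.8 in TAC, 72.2 and 74.8 with knockdown and 45.2 and 50.7 in sham. In these genes both knockdown libraries stayed on the TAC side of the sham values. Myh7b, a slow myosin heavy chain gene, stood at 64.3 and 77.7 in TAC, 91.9 and 84.9 with knockdown and 113 and 113 in sham. Slc8a1, the sodium and calcium exchanger, stood at 611 and 618 in TAC, 488 and 559 with knockdown and 414 and 372 in sham, and the transmembrane protein gene Tmem267 at 22.7 and 32.1 in TAC, 16.7 and 20.1 with knockdown and 13.5 and 11.8 in sham. For these genes, as for Nr4a1 and Camk2b, both knockdown libraries lay between the sham and the TAC values. Nr4a3, a relative of Nr4a1, stood at 6.36 and 7.20 in TAC, 6.88 and 5.10 with knockdown and 19.6 and 38.3 in sham, and the platelet chemokine gene Ppbp at 1.82 and 0.755 in TAC, 2.29 and 1.151 with knockdown and 11.3 and 16.5 in sham, both at the TAC level. Exons of Fbn1, Ednra, Myh7b, Slc8a1 and Tmem267 share bases with genes on the opposite strand, so their counts are uncertain.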

How the data were processed

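The deposited table holds log2 CPM of 19320 genes in 6 columns, made by the authors. The submitters' processing notes name limma and mm10. How reads were aligned and counted, with which annotation and strand setting, is not given in the sources used here. Per the labels' protocols, TRIzol extraction covered hearts as well as cells in culture, and a SMARTer kit was used. Which material each library came from is given only as heart, and the series' title holds an abbreviation, EndoFP, that is not explained.

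The columns of a group were resolved as mixtures with shares of 60% and 40% (99.9% of 115920 values whole within 0.05, 0 negative); pairing columns across groups (12 pairs) left 20.6 to 21.1% whole. No source records such mixing. A library takes the number of the column where its share is 60%. Depth is given with the results; 3 reads make between 0.164 and 0.202 CPM.

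All 6 libraries were fitted with 1 mean per group by limma 3.58.1 (R 4.3.3, intensity trend) on log2 CPM with 0.5 reads added and library totals as scaling, which understates changes of genes with few reads. Genes needed the CPM of 10 reads in at least 2 libraries and 15 reads in all; 4873 genes with 0.0583% of reads were removed. P-values were Benjamini-Hochberg adjusted over all genes and called below 0.05. Errors after ± are standard errors of the moderated fit. The procedure was tested on simulated data, where it called 5 of 14076 unchanged genes. Positions are from GENCODE on GRCm38, promoters from RefSeq, and 10880 tested genes matched a promoter.

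The genes and lists were chosen with earlier results of these data known. Named were Snai1, the 15 genes each way with the smallest p among those with at least 20 mean reads, up to 4 members of a list with the smallest p and 2 with the most reads, and genes called between TAC and sham. Nppb, Bmp10, Ifit3, Cdh1, the CD3 genes and the genes whose E-boxes are shown were named after their values were seen. Alternatives were scalings, filters, added reads, limma-voom, robust limma, replicate blocks, the deposited columns and leaving out each library.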

Additional observations from a re-analysis of the deposited data

How the results depend on the processing

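Between knockdown and TAC, 0 genes were called with 2 reads added, no filter, median ratio scaling, quantile normalization, limma-voom, robust limma, the 4 libraries alone, and without each library in turn. The deposited columns, mixtures of the same libraries whose scatter is no replicate spread, gave 12137 calls, and Snai1 a log2 difference of -0.51 with an adjusted p of 2.41e-06 (limma). The replicate number as a block gave 1 call, Ptgds (limma adjusted p = 0.0348), and in the 4 libraries alone, a setting chosen after seeing the data, 3: Ptgds (0.0119), Nppa (0.0275) and Pdk4 (0.0346). Same-numbered deviations from the group means correlated at -0.15 between TAC and knockdown, -0.21 between sham and TAC and 0.15 between sham and knockdown, so the numbers are not known to pair the libraries. Crossed pairing, also chosen after seeing the data, gave 0 calls in 6 and in 4 libraries. Between TAC and sham the main 23 calls became 42 with 2 reads added, 9 with no filter, 40 with the replicate block, 13812 in the deposited columns, and between 4 (without TAC replicate 2) and 45 (without sham replicate 1) with a library left out; the cause was not tested. Of 46 list medians, 29 were above 0, and between 15 (without knockdown replicate 1) and 37 (without TAC replicate 2) with a library left out; 38 lists changed sign in at least 1 setting. With a library left out, Cdh5 ranged from -0.050 (without TAC replicate 1, reversed) to 0.26 and Fhl1 from -0.96 to 0.048 (without TAC replicate 2, reversed). For the 53 named genes that were followed, 789 of 848 values kept direction and side of the threshold. The other named genes were not counted, and some of them change direction when a library is left out. Mpeg1, higher with knockdown in the estimate, stood at 45.7 CPM in knockdown replicate 2 against 46.6 and 54.9 in TAC. Fbn1, lower in the estimate, stood at 124 and 126 with knockdown against 121 in TAC replicate 1. Depth limits the genes under 20 reads, of which 0 had an interval within 2-fold.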

Other observations

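Clock genes, whose levels follow the time of day, were higher with knockdown in 16 of 23 cases, with a median log2 difference of 0.03. Nr1d1, which encodes the repressor REV-ERB alpha, stood at 191 and 133 CPM in TAC against 239.6 and 186 with knockdown (0.41 ± 0.16), and Ciart, another repressor of the clock, at 20.8 and 9.29 against 30.6 and 20.6 (0.85 ± 0.30). In both genes TAC replicate 2 was the lowest of the 4 libraries and knockdown replicate 1 the highest. Of 35 immediate early genes, 19 were higher with knockdown and 16 lower. Beside Nr4a1, Egr3 stood at 2.93 and 3.14 in TAC against 1.11 and 1.75 with knockdown (-1.10 ± 0.46), and Dusp5, a phosphatase induced by ERK signalling, at 8.23 and 9.81 against 7.01 and 4.93 (-0.61 ± 0.26). None of these genes passed the test (limma, adjusted p = 0.999). Cell cycle genes had a median of -0.04, from 17 higher and 21 lower, which was 0.25 without TAC replicate 2 and -0.51 without TAC replicate 1. Genes of the unfolded protein response had a median of 0.09, with 20 of 31 higher. Hspa5, the endoplasmic reticulum chaperone BiP, stood at 523 and 560.4 CPM in TAC against 597 and 595 with knockdown (0.14 ± 0.10).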
